A study of Mus musculus with 8 samples.

Results

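Gamma-secretase is the membrane protease that the drug DBZ, dibenzazepine, inhibits, and its subunits were followed here at the level of their transcripts. The subunit genes were Psen2, Ncstn, Psenen, Aph1a and Aph1b, and every probe set annotated to exactly one of them was taken, whatever its signal. The array's annotation named 12394 genes in all, and the 5 subunit genes had 7 of its 22690 probe sets, which covered 4 of them: 3 for Aph1a, 2 for Psen2, and 1 each for Ncstn and Psenen. No probe set was named with Aph1b in the annotation used, and Aph1b was not analysed here. Of the 7 probe sets, 6 had a mean signal above the minimum for testing, and the second Psen2 probe set did not.

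The mice were 6-week-old C57/Black6 females that received an intraperitoneal injection daily for 5 days, and small intestine was snap frozen for total RNA. One group received dexamethasone at 15 mg/kg together with DBZ at 10 µmol/kg (dexa+DBZ), one received DBZ alone at 10 µmol/kg, one received dexamethasone alone at 15 mg/kg (dexa), and the last received the vehicle DMSO. Dexamethasone is a synthetic glucocorticoid, and the study was about the interaction of both drugs. The labels give 2 mice per group, but the values deposited for the second DBZ mouse repeat those of the first in 22684 probe sets, with 6 exceptions, so DBZ was counted as 1 array and 7 arrays were distinct. The labels do not name the segment of the small intestine.

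The complex has a catalytic presenilin subunit, which Psen2 can provide, held together with nicastrin, APH-1 and PEN-2. It cuts the membrane stubs that are left after a sheddase has removed the outer domain of a substrate, and it is best known for releasing the intracellular domain of Notch receptors and the amyloid peptides of the amyloid precursor protein. In the intestinal crypt, Notch signalling keeps progenitors dividing and away from the goblet cell fate, which is why inhibitors of the enzyme are known for causing goblet cell metaplasia.

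Arrays were compared after scaling to one trimmed mean of 250, because the deposited trimmed mean was 500.2 on each DMSO array and 250.1 on each treated array. The DMSO arrays stood apart from all 5 treated arrays in measures other than the subunits. Rank correlations over the 13638 tested probe sets were 0.892 to 0.928 between treated and DMSO arrays, against 0.939 to 0.972 between arrays of different treated groups. The summed signal of 8 intestinal epithelial markers was 47864 to 70380 on treated arrays and 50755 to 51851 on DMSO arrays, so the tissue label held. Some single markers in this sum did not overlap. Cdx2 was 507 to 730 on treated arrays against 1304 and 1352 on DMSO arrays. Epcam (4643 to 6230 against 4032 and 4364) and Cdh17 (5213 to 7269 against 4799 and 5203) were higher on treated arrays, and the others overlapped. Of all tested probe sets, 16.3% were lower and 15.2% higher on all 5 treated arrays than on both DMSO arrays. The 4 ileal markers summed to 4021 to 17206 on treated arrays and 633 to 740 on DMSO arrays, and the 4 proximal markers to 763 to 1633 on treated arrays and 3758 to 4516 on DMSO arrays. Smooth muscle markers (7 genes) summed to 13998 to 22266 on treated arrays and 6627 to 9156 on DMSO arrays, and fibroblast markers (6 genes) to 5615 to 7361 on treated arrays and 1656 to 3334 on DMSO arrays. T cell markers (5 genes) summed to 44.5 to 156 on treated arrays and 163 to 206 on DMSO arrays, and the 3 measured pancreatic acinar markers to 161 to 279 on treated arrays and 205 to 385 on DMSO arrays. None of these markers was at 0 on any array, but many signals were under 38.8, the mean required for testing. This held for up to 5 T cell markers on a treated array and up to 3 on a DMSO array. For acinar markers it was up to 2 and up to 1, and for ileal markers up to 1 and up to 3. The T cell sums therefore rest on low signals. The signal of the middle probe set of the small-subunit ribosomal RNA control was 29.8 to 64.7 on treated arrays, against 133 and 141 on DMSO arrays. The part of these differences in each comparison with DMSO below was not tested. The 3′ to 5′ ratio of the Gapdh control was 1.80 on the DBZ array, against 0.905 to 1.22 on the others. That of the actin control was 2.17 on the DBZ array and 1.51 and 1.79 on the DMSO arrays. On the dexa and dexa+DBZ arrays it was 1.22 to 1.40. The part of these ratios in the results was not tested either.

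**Figure D1:**
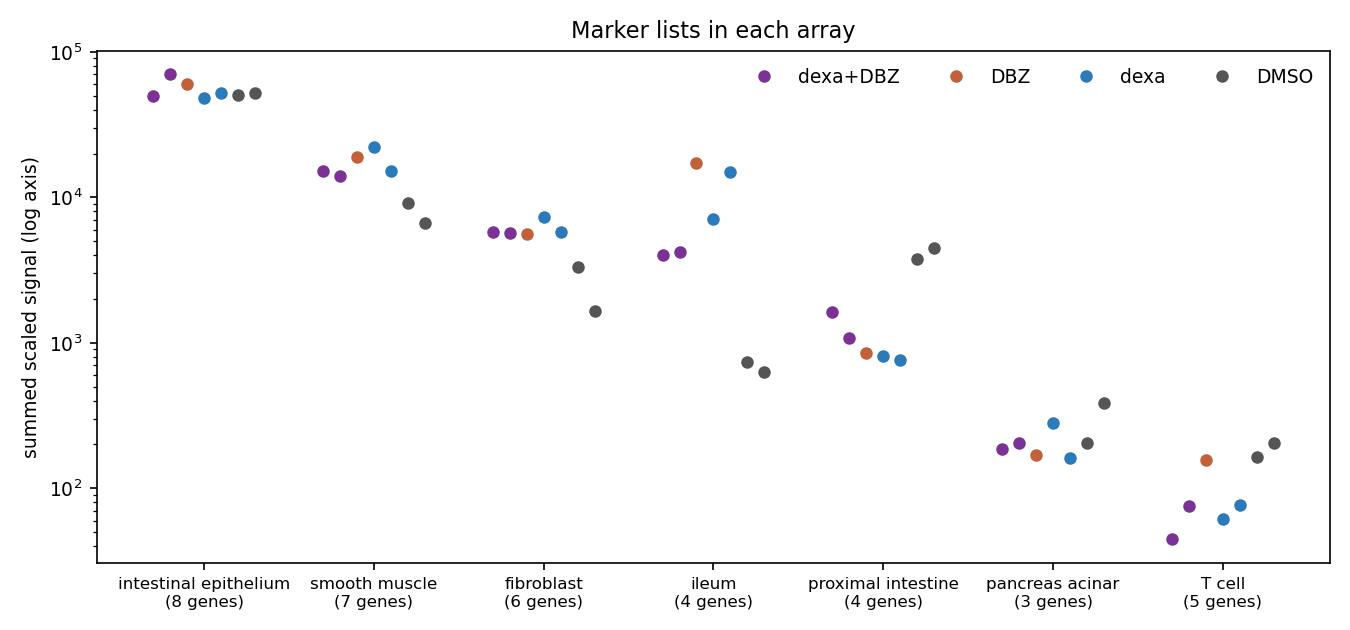
Summed scaled signal of each marker list (log axis) on every array, with the number of genes measured per list. Epithelial sums overlapped between treated and DMSO arrays, whereas ileal, smooth muscle and fibroblast sums lay higher on all 5 treated arrays and proximal sums lay lower.

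Promoter sequence from RefSeq (GRCm38.p6) was available for all 4 measured subunit genes, as 6 windows that each run from 250 bases before an annotated start to 50 bases after it. The windows were searched on both strands for TGGGAA, the core letters bound by RBPJ, the DNA-binding partner of the Notch intracellular domain, for the longer form GTGGGAA, which contains it, and for AGAACA, a half-site of the glucocorticoid receptor. The 3 windows that held any of these letters are shown because the mice received a drug acting on each pathway. Each runs from base -250 to the fifth base of the transcript, and capitals mark the matches, with TTCCCAC and TGTTCT being GTGGGAA and AGAACA on the opposite strand.
Aph1a, chr3:95893671-95893925, plus strand: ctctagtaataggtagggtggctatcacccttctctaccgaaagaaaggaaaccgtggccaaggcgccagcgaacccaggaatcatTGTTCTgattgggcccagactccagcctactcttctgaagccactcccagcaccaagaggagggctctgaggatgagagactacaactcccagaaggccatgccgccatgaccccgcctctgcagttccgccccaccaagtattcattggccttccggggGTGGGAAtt
Psen2, second annotated start, chr1:180245946-180246200, minus strand: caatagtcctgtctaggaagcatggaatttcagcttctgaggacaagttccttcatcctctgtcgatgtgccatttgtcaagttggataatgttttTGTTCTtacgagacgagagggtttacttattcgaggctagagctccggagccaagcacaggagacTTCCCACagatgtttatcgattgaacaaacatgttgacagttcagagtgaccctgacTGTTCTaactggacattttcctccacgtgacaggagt
Psenen, second annotated start, chr7:30563200-30563454, minus strand: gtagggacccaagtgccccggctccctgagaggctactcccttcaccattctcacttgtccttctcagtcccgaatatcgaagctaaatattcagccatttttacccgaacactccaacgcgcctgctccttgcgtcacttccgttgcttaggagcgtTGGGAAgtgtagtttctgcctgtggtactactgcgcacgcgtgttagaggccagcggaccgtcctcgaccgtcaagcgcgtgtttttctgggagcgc

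In the Aph1a window GTGGGAA lay across the start, from base -4, and the half-site began at base -164. The Psen2 window held GTGGGAA from base -89 and 2 half-sites, from bases -154 and -32. The Psenen window held TGGGAA from base -92 and no other match. Among the 6 windows, TGGGAA was in 3, GTGGGAA in 2 and AGAACA in 2. Over all 32851 windows of the same length, 25.6% held TGGGAA, 6.38% held GTGGGAA and 19% held AGAACA. The Ncstn window and the first windows of Psen2 and Psenen held none of these letters, which says nothing of whether a factor binds there.

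Most subunit transcripts showed no change past the test with either drug, and one Aph1a probe set was the exception. Aph1a 1424980_s_at fell in dexa+DBZ, DBZ and dexa intestine relative to DMSO intestine. The catalytic Psen2, nicastrin and PEN-2 did not pass in any comparison, and neither did the other 2 Aph1a probe sets. Between treated groups no subunit probe set passed. The changes are given as log2 of signal plus 12.3, a scale that understates changes of low signals, with limma's standard error and an adjusted p over 13638 tested probe sets, and 0.05 was the threshold.

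**Figure D2:**
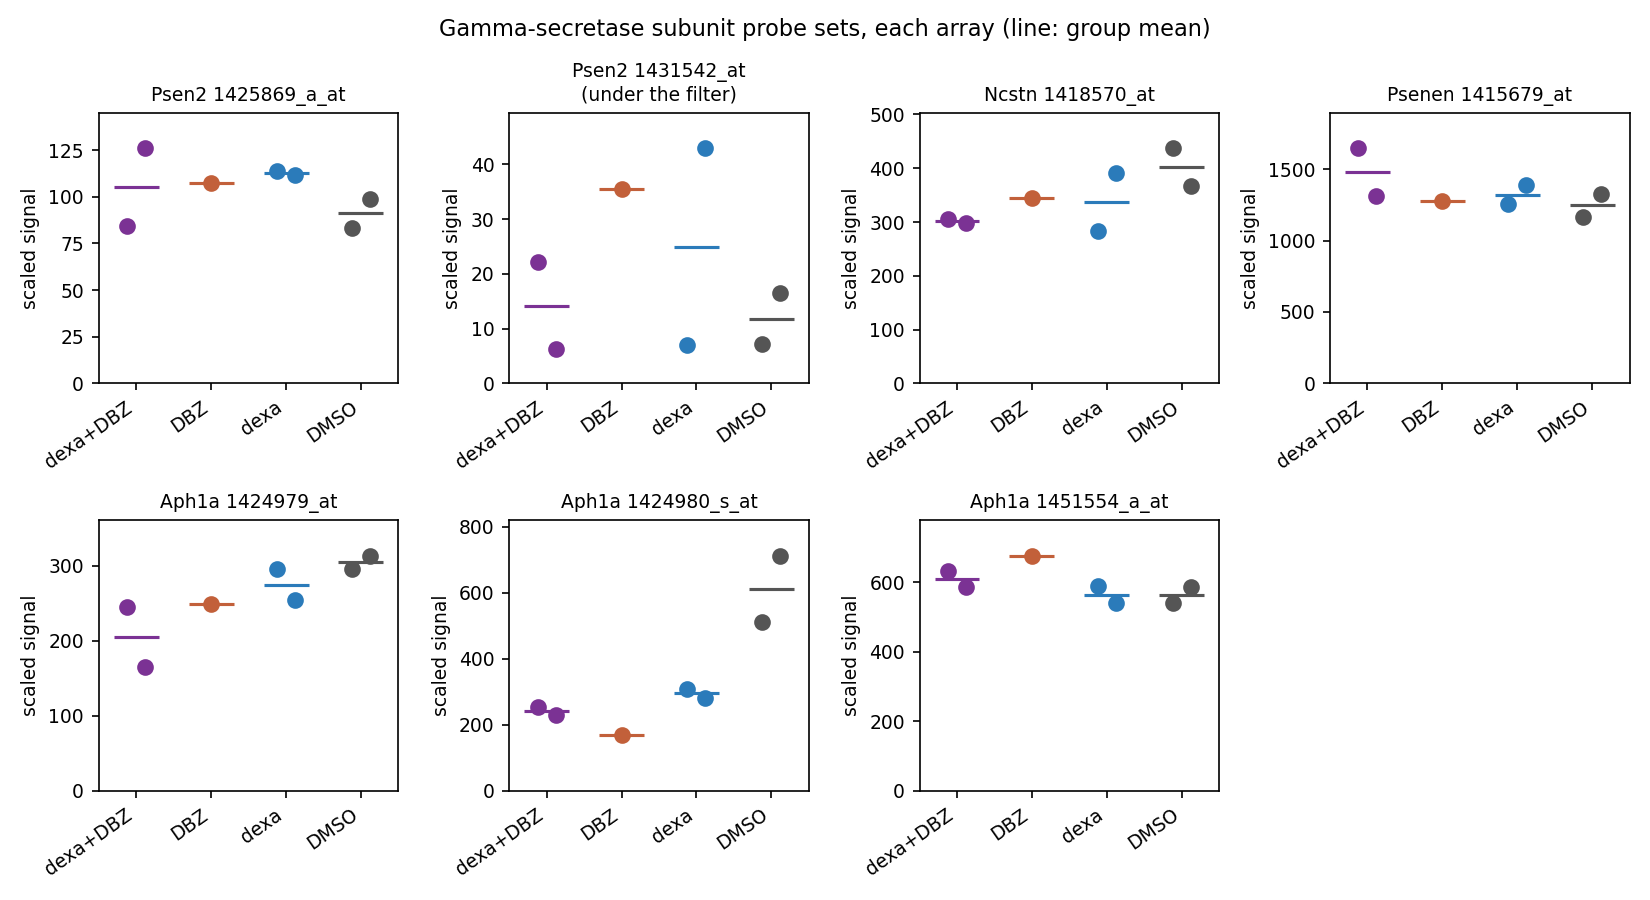
Scaled signal of each of the 7 subunit probe sets (vertical axes from 0) on every array, by group, where points are arrays and lines are group means. Aph1a 1424980_s_at lay between 170 and 309 on the treated arrays and at 511 and 713 on the DMSO arrays, whereas Psen2 1425869_a_at, Ncstn and Psenen overlapped between treated and DMSO arrays.

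Psen2, on mouse chromosome 1 (180227004 to 180263467 in GRCm38.p6), encodes presenilin 2, one of the alternative catalytic subunits. Its probe set 1425869_a_at had signals of 84.3 and 126 in dexa+DBZ intestine, 108 in DBZ, 114 and 111 in dexa, and 83.5 and 98.8 in DMSO intestine. The treated and DMSO arrays overlapped, and the widest gap was between the dexa+DBZ mice. Group means, from low to high, were 91.1 ± 10.8 in DMSO (SD, n = 2), 105 ± 29.5 in dexa+DBZ (n = 2), 108 in DBZ (n = 1) and 113 ± 1.66 in dexa (n = 2), and no neighbours in that order differed past the test. The log2 change was 0.22 ± 0.31 in DBZ relative to DMSO (SE, adjusted p = 0.699, limma), with a 95% interval of -0.47 to 0.90. It was 0.28 ± 0.25 in dexa (adjusted p = 0.535, interval -0.28 to 0.83) and 0.16 in dexa+DBZ (adjusted p = 0.739). These intervals leave room for an increase of more than 1.5-fold in DBZ intestine, so an increase of that size was not excluded by these arrays.

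The second Psen2 probe set, 1431542_at, stayed under the mean signal of 38.8 required for testing, with a mean of 19.6. Its signals were 22.2 and 6.27 in dexa+DBZ, 35.5 in DBZ, 6.95 and 43.0 in dexa, and 7.17 and 16.5 in DMSO intestine. The dexa mice alone spanned nearly its whole range, and it was not tested.

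Ncstn, on chromosome 1 (172066013 to 172082789), encodes nicastrin, the large glycoprotein subunit that gates access of substrates to the complex. Its signals were 306 and 297 in dexa+DBZ intestine, 344 in DBZ, 283 and 391 in dexa, and 437 and 366 in DMSO intestine. Both dexa+DBZ arrays and the DBZ array lay below both DMSO arrays, and the dexa arrays overlapped them. Of all tested probe sets, 29.4% lay below both DMSO arrays on both dexa+DBZ arrays, and 43.6% did so on the DBZ array. The log2 change was -0.39 in dexa+DBZ relative to DMSO, with an interval of -0.85 to 0.06 (adjusted p = 0.268, limma). It was -0.21 ± 0.25 in DBZ (adjusted p = 0.637) and -0.26 ± 0.20 in dexa (adjusted p = 0.468). From low to high the group means were 302 ± 6.36 in dexa+DBZ, 337 ± 76.7 in dexa, 344 in DBZ and 402 ± 49.98 in DMSO intestine, and no neighbours differed past the test.

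Psenen, on chromosome 7 (30561865 to 30563627), encodes PEN-2, the small subunit that is needed for presenilin to be cleaved into its active form. Its signals were 1646 and 1314 in dexa+DBZ intestine, 1273 in DBZ, 1258 and 1386 in dexa, and 1167 and 1325 in DMSO intestine. One dexa+DBZ array was above all others, and the remaining 6 lay within 1167 to 1386. The log2 change was 0.03 ± 0.22 in DBZ relative to DMSO, with an interval of -0.45 to 0.52 (adjusted p = 0.940, limma). It was 0.09 ± 0.18 in dexa (adjusted p = 0.808) and 0.24 in dexa+DBZ, with an interval of -0.15 to 0.63 (adjusted p = 0.437). The group means were 1246 ± 112 in DMSO, 1273 in DBZ, 1322 ± 90.2 in dexa and 1480 ± 234 in dexa+DBZ intestine, in an order in which no neighbours differed past the test.

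Aph1a, on chromosome 3 (95893921 to 95898592), encodes a multipass subunit that forms the first scaffold of the complex together with nicastrin. Its 3 probe sets gave different answers. In the array maker's naming, the suffix _s_at marks probes that can match transcripts of more than one gene and _a_at marks probes shared by transcript variants of one gene. All 3 were annotated to the same source record, and the labels and tables do not say where in the transcript the probes lie.

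Aph1a 1424980_s_at had signals of 253 and 231 in dexa+DBZ intestine, 170 in DBZ, 309 and 281 in dexa, and 511 and 713 in DMSO intestine. Every treated array lay below both DMSO arrays. Among the groups, DBZ intestine was lowest, followed by dexa+DBZ at 242 ± 15.7, dexa at 295 ± 19.7 and DMSO at 612 ± 143. The probe set fell by 1.76 ± 0.25 on the log2 scale in DBZ relative to DMSO intestine, which is 0.296 of the DMSO level (adjusted p = 0.00530, limma). It fell by 1.01 ± 0.20 in dexa intestine, or to 0.498 of the DMSO level (adjusted p = 0.0126), and by 1.28 ± 0.20 in dexa+DBZ intestine, or to 0.412 of it (adjusted p = 0.00711). All 3 comparisons share the same 2 DMSO arrays, and these had the widest gap within a group. The call in dexa intestine ended without either dexa array (adjusted p = 0.0552 without the first and 0.0635 without the second) and without the second DMSO array (log2 change -0.77, adjusted p = 0.0715). That in dexa+DBZ intestine ended without either dexa+DBZ array. The call in DBZ intestine held without each of the other 6 arrays in turn, with changes from -1.99 to -1.52. The single DBZ array could not itself be left out, so this call did not face the same check.

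Aph1a 1424979_at had signals of 245 and 165 in dexa+DBZ intestine, 248 in DBZ, 295 and 254 in dexa, and 296 and 314 in DMSO intestine. The treated arrays again all lay below the DMSO arrays, but the higher dexa array was nearly level with the lower DMSO array. Its log2 change was -0.57 ± 0.22 in dexa+DBZ relative to DMSO, with an unadjusted p of 0.0263 and an adjusted p of 0.146 (limma). In DBZ it was -0.28 ± 0.27 (adjusted p = 0.539) and in dexa -0.15 ± 0.22 (adjusted p = 0.724). Of all tested probe sets, 16.3% had all 5 treated arrays below both DMSO arrays, as these 2 Aph1a probe sets did.

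Aph1a 1451554_a_at had signals of 632 and 585 in dexa+DBZ intestine, 677 in DBZ, 588 and 541 in dexa, and 541 and 587 in DMSO intestine. Here the DBZ array was the highest of all, and the dexa and DMSO arrays had the same mean of 564. The log2 change was 0.26 ± 0.20 in DBZ relative to DMSO, with an interval of -0.19 to 0.71 (adjusted p = 0.445, limma). It was 0.11 in dexa+DBZ (adjusted p = 0.736) and 0.00 ± 0.16 in dexa, with an interval of -0.36 to 0.37 (adjusted p = 0.999). The largest fall that this interval allows is well short of the change of -1.01 measured by 1424980_s_at in the same dexa arrays.

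The probe sets of Aph1a can be set against each other within an array, where a scaling factor cancels nearly completely. The log2 difference of 1424980_s_at minus 1451554_a_at was -1.28 and -1.30 in dexa+DBZ, -1.92 in DBZ, -0.90 and -0.91 in dexa, and -0.08 and 0.28 in DMSO intestine. Mice of the same treated group had nearly the same difference, and every treated array lay below both DMSO arrays. The difference of 1424979_at minus 1451554_a_at was -1.32 and -1.75 in dexa+DBZ, -1.40 in DBZ, -0.96 and -1.05 in dexa, and -0.84 and -0.88 in DMSO intestine. Here too the treated arrays lay below both DMSO arrays, by a smaller gap. These differences show unequal change of the probe sets and not which of them follows the Aph1a transcript.

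**Figure D3:**
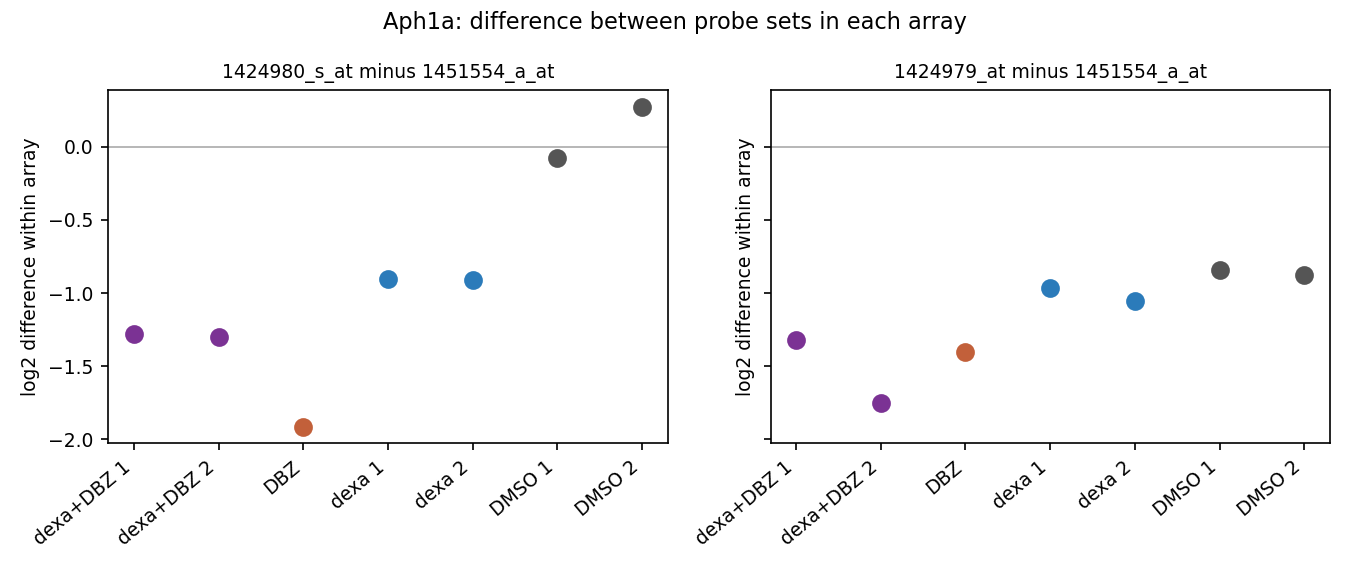
Difference in log2 value between 2 Aph1a probe sets on each array (vertical axis, log2 units), 1424980_s_at minus 1451554_a_at on the left and 1424979_at minus 1451554_a_at on the right. On the left the treated arrays lay between -1.92 and -0.90 and the DMSO arrays at -0.08 and 0.28, and on the right the gap between treated and DMSO arrays was smaller.

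Over the 6 tested subunit probe sets, 1 passed in DBZ relative to DMSO intestine, where 8.34% of all tested probe sets passed and 4.6% passed with a lower signal. In dexa intestine 1 of 6 passed, against 12% of all (4.82% lower), and in dexa+DBZ intestine 1 of 6, against 7.44% of all (3.06% lower). With 6 probe sets, 1 call is not far from these shares. The median log2 change of the 6 was -0.09 in DBZ, -0.07 in dexa and -0.14 in dexa+DBZ relative to DMSO, against medians over all tested probe sets of -0.05 in DBZ, 0.02 in dexa and -0.04 in dexa+DBZ. Because intestine was measured as bulk tissue, fewer cells of a type and less RNA per cell cannot be told apart in any of these values.

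**Figure D4:**
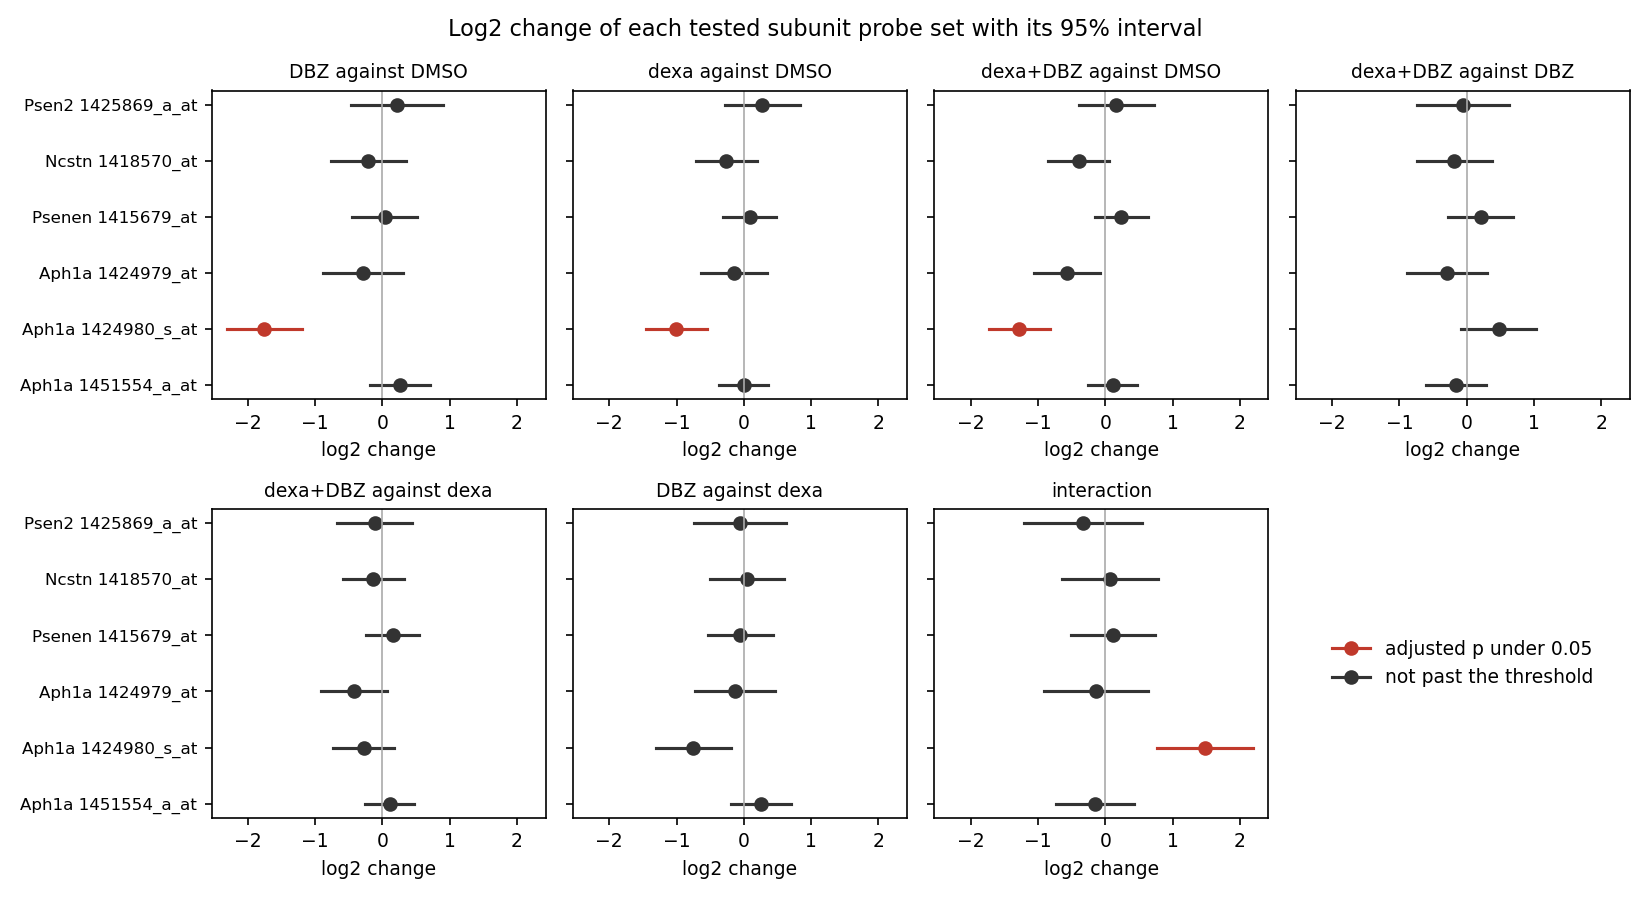
Log2 change (horizontal axes) of each tested subunit probe set with its 95% interval in the 7 comparisons, the first group of each panel title over the second, with red for an adjusted p under 0.05. Aph1a 1424980_s_at passed in the 3 comparisons with DMSO and in the interaction, and no other probe set passed.

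Adding one drug to the other moved no subunit past the test. In dexa+DBZ relative to DBZ intestine 0 of 6 probe sets passed, with adjusted p of 0.481 to 0.964 (limma), and 0.33% of all tested probe sets passed. None of the 6 had an unadjusted p under 0.05, against 12.3% of all. The largest change was that of Aph1a 1424980_s_at, at 0.48 ± 0.25 (interval -0.08 to 1.03). In dexa+DBZ relative to dexa intestine 0 of 6 passed, with adjusted p of 0.591 to 0.918, and 0.0293% of all passed. Again none had an unadjusted p under 0.05, against 9.36% of all. Here the changes were -0.42 for Aph1a 1424979_at (interval -0.91 to 0.07), -0.28 for Aph1a 1424980_s_at, and -0.14 to 0.15 for the other 4.

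Both drugs given alone were also set against each other. In DBZ relative to dexa intestine 0 of 6 passed, with adjusted p of 0.210 to 0.949 (limma), and 0.337% of all tested probe sets passed. One probe set, Aph1a 1424980_s_at, had an unadjusted p under 0.05, where 15.2% of all did, with a change of -0.75 ± 0.25 (interval -1.31 to -0.20, adjusted p = 0.210). The change was -0.06 for Psen2, 0.05 for Ncstn, -0.05 for Psenen, -0.13 for Aph1a 1424979_at and 0.26 for Aph1a 1451554_a_at. A p that misses the threshold does not show that the drugs act alike on these genes, and DBZ was a single array, for which the spread of the remaining groups was taken.

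The interaction was taken as dexa+DBZ minus dexa minus DBZ plus DMSO. A difference shared by all treated arrays relative to the DMSO arrays would enter it, and the part of such a difference was not tested. The interaction asks whether the combined change differed from the sum of both single changes. For Aph1a 1424980_s_at it was 1.48 ± 0.32 (interval 0.76 to 2.20, adjusted p = 0.0364, limma), so the combined fall was smaller than the sum of the falls in DBZ and dexa intestine. This was 1 of 6 subunit probe sets, where 4% of all tested probe sets passed. The call ended without either dexa+DBZ array (1.42 and 1.54), without either dexa array (1.55 and 1.42) and without the second DMSO array (1.25), and also when low probe sets were kept (adjusted p = 0.0681) or without the intensity trend (adjusted p = 0.0796). The other 5 interactions ran from -0.33 for Psen2 to 0.12 for Psenen and did not pass.

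The spread of the subunits over all 7 arrays differed between probe sets. The range from the lowest to the highest array was 0.53 log2 units for Psen2, 0.61 for Ncstn, 0.49 for Psenen, 0.32 for Aph1a 1451554_a_at and 0.88 for Aph1a 1424979_at, against a median of 0.84 over all tested probe sets. Aph1a 1451554_a_at had a wider range than only 2.58% of tested probe sets and Psenen than 13.4%. Aph1a 1424980_s_at spanned 1.99, wider than 94.6%. Within the 5 treated arrays its range was 0.82, wider than 70.5%. Aph1a 1424979_at was wider than 53.1% over all arrays and than 68.4% within the treated arrays.

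Genes whose signals ran most like a subunit over the 7 arrays are named as a description, by Pearson's r of log2 values among 7988 genes compared, and arrays share their scaling and groups. For Psen2 they were Angel2 (0.968), Smim26 (0.948) and Elp2 (0.948), for Ncstn Ptpn5 (0.943), Mmadhc (0.937) and Ogg1 (0.937), and for Psenen Sowaha (0.964), Rb1 (0.958) and Nrip1 (0.950). Aph1a, taken by 1451554_a_at, was nearest to Zmym5 (0.976), Erbb3 (0.966) and Ap2s1 (0.966). Between 11 and 36 genes had an r of at least 0.9 with each of these probe sets, counting also anonymous clone symbols, which the 7988 leave out. No subunit was among the 3 nearest genes of another.

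The proteases that cut before gamma-secretase were next. In the lists that follow each gene counts once, by its brightest probe set, and calls of its other probe sets are given beside the count. The sheddases Adam10 and Adam17, which make the cut in Notch that precedes that of gamma-secretase, did not pass in any comparison. By its brightest probe set Adam10 had changes of 0.34 in DBZ, 0.07 in dexa and 0.08 in dexa+DBZ relative to DMSO. Its other probe sets had the opposite sign in DBZ, at -1.24 (adjusted p = 0.0706, limma) and -0.45 (adjusted p = 0.319). Of 35 sheddase gene and comparison pairs 5 (14.3%) had an unadjusted p under 0.05 (limma), against 19.3% over all tested probe sets. Of 5 sheddases tested, 1 rose in dexa intestine, where 7.22% of all tested probe sets rose. None passed in DBZ or dexa+DBZ relative to DMSO or between treated groups. The sheddase that rose was Bace2, a relative of the beta-secretase Bace1, with signals by 1416673_at of 80.1 and 94.3 in dexa+DBZ, 113 in DBZ, 196 and 143 in dexa, and 52.6 and 38.8 in DMSO intestine. Every treated array was above both DMSO arrays, as in 15.2% of all tested probe sets, and the dexa arrays were highest. It rose by 1.64 ± 0.26 in dexa relative to DMSO intestine (adjusted p = 0.00445, limma), and its change was 1.12 ± 0.32 in DBZ (adjusted p = 0.0581) and 0.78 ± 0.26 in dexa+DBZ (adjusted p = 0.0987). Its other probe set rose by 1.69 in dexa (adjusted p = 0.0418), a call lost without either dexa+DBZ array, the first dexa array (1.04) or either DMSO array. The interaction by 1416673_at was -1.98 ± 0.41 (adjusted p = 0.0309), but -1.99 with an adjusted p of 0.159 by the other probe set. The call on the interaction ended without either dexa+DBZ array (-1.87 and -2.08), the first dexa array (-1.77) or the second DMSO array (-1.80), and when low probe sets were kept. The median change of the 5 sheddases was 0.34 in DBZ, 0.07 in dexa and 0.08 in dexa+DBZ relative to DMSO, whereas over all 11 sheddase probe sets it was -0.04 in DBZ, 0.43 in dexa and 0.37 in dexa+DBZ. The other sheddase named by rank was Bace1, which cleaves the amyloid precursor protein, at 0.65 ± 0.32 in DBZ (adjusted p = 0.236).

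Among known substrates of the complex, 19 of 28 listed genes were tested. Counted by their brightest probe sets, 2 rose in dexa intestine relative to DMSO and none passed in DBZ, in dexa+DBZ or between treated groups. Over all 34 probe sets of these genes 4 rose in dexa, 2 rose in dexa+DBZ, and 1 rose and 1 fell in DBZ relative to DMSO. Of all tested probe sets 7.22% rose in dexa, 4.38% rose in dexa+DBZ, and 3.74% rose and 4.6% fell in DBZ. Of 133 substrate gene and comparison pairs 24 (18%) had an unadjusted p under 0.05 (limma), against 19.3% over all tested probe sets. The 2 counted by their brightest probe sets are sorting or lipoprotein receptors. Sorl1, a sorting receptor for the amyloid precursor protein, had signals of 229 and 286 in dexa+DBZ, 396 in DBZ, 557 and 486 in dexa, and 309 and 201 in DMSO intestine. The dexa arrays were above all others, and the dexa+DBZ arrays lay between the DMSO arrays. Sorl1 rose by 1.03 ± 0.23 in dexa (adjusted p = 0.0197, limma) and its interaction was -1.63 ± 0.36 (adjusted p = 0.0390). The first of these calls ended without the first dexa array (0.93) or the second DMSO array (0.73), and the second was lost without either array of dexa+DBZ (-1.48 and -1.79) or of dexa (-1.54 and -1.73) and without the second DMSO array (-1.34). Vldlr, the very low density lipoprotein receptor, had signals of 95.5 and 92.6 in dexa+DBZ, 98.4 in DBZ, 157 and 101 in dexa, and 52.3 and 43.8 in DMSO intestine. It rose by 1.20 ± 0.27 in dexa (adjusted p = 0.0195), a call lost without the first dexa array (0.91) or the second DMSO array (1.10).

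Further calls came from probe sets that were not the brightest of their gene, picked out after their values were seen. App, the amyloid precursor protein, had signals by 1420621_a_at of 2013 and 1930 in dexa+DBZ, 1779 in DBZ, 1650 and 1934 in dexa, and 1173 and 904 in DMSO intestine. Every treated array was above both DMSO arrays, as in 15.2% of all tested probe sets. This probe set rose by 0.93 ± 0.18 in dexa+DBZ (adjusted p = 0.0164, limma) and by 0.79 ± 0.18 in dexa (adjusted p = 0.0229), and its change was 0.78 ± 0.22 in DBZ (adjusted p = 0.0589). The brighter App probe set had changes of the same sign that did not pass, at 0.56 ± 0.17 in dexa+DBZ (adjusted p = 0.0799), 0.71 ± 0.21 in DBZ (adjusted p = 0.0683) and 0.32 ± 0.17 in dexa (adjusted p = 0.265). Both App calls ended without either array of the drug group (adjusted p = 0.105 and 0.0946 in dexa+DBZ, 0.0651 and 0.127 in dexa) or without the second DMSO array (0.74 in dexa+DBZ, 0.60 in dexa).

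Aplp2, a close relative of App, rose by 1421889_a_at in dexa (0.91 ± 0.17, adjusted p = 0.00942, limma) and in dexa+DBZ (0.73 ± 0.17, adjusted p = 0.0320). Its signals were 377 and 349 in dexa+DBZ, 224 in DBZ, 421 and 404 in dexa, and 211 and 216 in DMSO intestine, so the DBZ array was nearly level with the DMSO arrays. The call in dexa ended without the first dexa array (adjusted p = 0.0686), and that in dexa+DBZ ended without any 1 of the 6 arrays of dexa+DBZ, dexa and DMSO (changes of 0.68 to 0.79). Its 4 other probe sets did not pass, at 0.09 to 1.18 in dexa and -0.17 to 1.38 in dexa+DBZ.

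The ephrins Efnb1 and Efnb2, membrane ligands that signal between neighbouring cells, each had 1 probe set that passed in DBZ relative to DMSO, in opposite directions. Efnb1 rose by 1.23 ± 0.30 by 1418285_at (adjusted p = 0.0383, limma), on signals of 560 in DBZ and of 267 and 201 in DMSO intestine. Its other probe sets were at 0.18 and 0.08, and the call ended without the first DMSO array (1.42) or the second (1.03). Efnb2 fell by 1.14 ± 0.27 by 1419638_at (adjusted p = 0.0320), on signals of 178 in DBZ and of 499 and 334 in DMSO intestine. Its other probe set was at 0.31, and the call ended without the first DMSO array (-0.86) or without either dexa+DBZ array.

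Other substrates did not pass. Sort1, another sorting receptor, changed by 0.91 ± 0.27 in dexa relative to DMSO (adjusted p = 0.0530, limma), on signals of 761 and 497 in dexa and 394 and 262 in DMSO intestine. Notch3, a Notch receptor that is also a transcriptional target of Notch, had signals of 43.7 and 44.0 in dexa+DBZ, 14.3 in DBZ, 39.2 and 49.3 in dexa, and 53.5 and 54.7 in DMSO intestine. The DBZ array was far the lowest, with a change of -1.32 ± 0.37 relative to DMSO (adjusted p = 0.0541), and it was -0.24 in dexa+DBZ and -0.24 in dexa. The median over the 19 substrates was 0.18 in DBZ, 0.10 in dexa and -0.10 in dexa+DBZ, and over their 34 probe sets it was 0.09 in DBZ, 0.22 in dexa and 0.03 in dexa+DBZ.

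Genes that move or tune the complex, of which 7 of 9 listed were tested, gave 0 calls by limma in all 7 comparisons, and 5 of 49 gene and comparison pairs (10.2%) had an unadjusted p under 0.05, against 19.3% over all tested probe sets and the 7 comparisons. Of 10 listed genes of Notch maturation and turnover 8 were tested, also with 0 calls and with 2 of 56 such pairs (3.57%). The nearest to the threshold of the first list was Arrb2, a beta-arrestin that binds APH-1, with a change of -1.05 ± 0.31 in dexa+DBZ relative to DBZ intestine (adjusted p = 0.216, limma). Rer1, a retention factor that acts on unassembled subunits, changed by 0.97 ± 0.33 in DBZ relative to dexa (adjusted p = 0.219). In the second list Mfng, a glycosyltransferase that modifies Notch, changed by -0.95 ± 0.39 in DBZ relative to DMSO (adjusted p = 0.155), and Numb, an inhibitor of Notch, by 0.39 ± 0.16 in dexa+DBZ relative to dexa (adjusted p = 0.490).

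The related intramembrane proteases, 4 tested of 7 listed, gave 1 call by their brightest probe sets, a rise in DBZ relative to DMSO intestine, and none in the other 6 comparisons. Over all 8 of their probe sets 1 rose and 1 fell in DBZ, where 3.74% of all tested probe sets rose and 4.6% fell. Of 28 gene and comparison pairs in this list 6 (21.4%) had an unadjusted p under 0.05 (limma), against 19.3% over all tested probe sets. Sppl3, a signal peptide peptidase-like enzyme of the same family as presenilin, had signals by 1451073_at of 387 and 412 in dexa+DBZ, 531 in DBZ, 425 and 415 in dexa, and 293 and 299 in DMSO intestine. It rose by 0.82 ± 0.20 in DBZ relative to DMSO (adjusted p = 0.0377, limma), a call lost without any 1 of the other 6 arrays (adjusted p of 0.0577 to 0.0735). Its other probe sets had changes of -0.54 and -0.11, so they did not share the direction. The fall was that of Sppl2a, another enzyme of this family, also picked out after its values were seen. By 1450459_at it had signals of 199 and 210 in dexa+DBZ, 105 in DBZ, 270 and 235 in dexa, and 239 and 244 in DMSO intestine. The DBZ array was the lowest of all. Sppl2a fell by 1.12 ± 0.23 in DBZ relative to DMSO (adjusted p = 0.0206, limma), and its other probe sets were at -0.40 and -0.31. The call held without each of the other 6 arrays in turn (changes of -1.13 to -1.10), but the single DBZ array could not be left out. Parl, the rhomboid protease of mitochondria, changed by -0.46 ± 0.16 in dexa+DBZ relative to dexa (adjusted p = 0.426).

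Genes that Notch switches on after the enzyme has released its intracellular domain did not pass. Of 8 listed Notch target genes 5 were tested, with 0 calls by limma in all 7 comparisons and 5 of 35 gene and comparison pairs (14.3%) at an unadjusted p under 0.05, against the same 19.3% over all. Their median change was -0.62 in DBZ, 0.01 in dexa and -0.34 in dexa+DBZ relative to DMSO, against -0.05 in DBZ, 0.02 in dexa and -0.04 in dexa+DBZ over all tested probe sets. Over all 7 tested probe sets of these genes the median was nearer to that of all, at -0.23 in DBZ, 0.01 in dexa and -0.24 in dexa+DBZ. Hes1, the classical Notch target that represses the secretory fate, had signals of 71.0 and 118 in dexa+DBZ, 71.3 in DBZ, 123 and 155 in dexa, and 104 and 138 in DMSO intestine. One dexa+DBZ array matched the DBZ array and the other lay within the DMSO arrays. Its change was -0.66 in DBZ relative to DMSO (adjusted p = 0.254) and -0.85 ± 0.34 in DBZ relative to dexa (adjusted p = 0.285).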

How the data were processed

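The intensity values were computed with MAS5, per the submitters' processing notes, and the authors deposited 1 such value for each probe set, with no detection call and no version named. The number of arrays limits the precision. All 8 columns were used, with the 2 DBZ columns as 1 array (the larger value where they differed). Signals were scaled so that every array had a trimmed mean of 250 (2% off each end), and log2 of signal plus 12.3 (pooled 20th percentile) was taken. After dropping 64 control probe sets and those averaging under 38.8 (pooled 40th percentile), 13638 were tested. In the annotation 20393 probe sets had 1 gene symbol, 691 several and 1606 none, and only the first kind was named. One linear model with 4 group means was fitted in limma 3.58.1 (R 4.3.3; intensity trend, 2-sided, Benjamini-Hochberg at 0.05, 3 residual and 6.83 prior degrees of freedom), and tested on simulated data. Nothing but the labels says the 2 mice per group were separate, so p-values measure the spread between these arrays. "Rose", "fell" and "passed" are used of an adjusted p under 0.05. A log2 change is followed by its SE, and a mean signal by its SD. For lists, the probe set with the highest mean stood for a gene, and calls of its other probe sets were added after their values were seen. Every subunit probe set was named, with the 3 genes most correlated with each subunit and up to 4 genes per list by smallest p. The members and lists were chosen with earlier results of these data known. Alternatives were quantile normalisation, the unscaled deposited values, pseudocounts of 1 and of the 40th percentile, no filter, no trend, a replicate block, and leaving out each array.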

Additional observations from a re-analysis of the deposited data

Results flagged for a closer look

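An interaction past the threshold means that the combined change relative to DMSO differed from the sum of both single changes. This was met by 3 of the named probe sets (limma). A difference shared by all treated arrays relative to the DMSO arrays would also enter such a term, and its part was not tested. For Aph1a 1424980_s_at the interaction was 1.48 ± 0.32 (SE, adjusted p = 0.0364), and its sign is positive because the fall with both drugs was smaller than the sum of the single falls. For Bace2 1416673_at it was -1.98 ± 0.41 (adjusted p = 0.0309), with the signals in dexa+DBZ intestine below those in DBZ and in dexa intestine. For Sorl1 1426258_at it was -1.63 ± 0.36 (adjusted p = 0.0390), with the dexa+DBZ arrays between the DMSO arrays. All 3 rest on the same 7 arrays, with 1 array for DBZ.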

How the results depend on the processing

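Of 558 alternative values of the subunit log2 changes, 508 kept direction and side of the threshold, 12 lost a call and 30 changed sign. A call was gained by 17, all with the values as deposited, and 9 of these changed sign too. The fall of Aph1a 1424980_s_at in DBZ relative to DMSO intestine kept its direction and call under every alternative run. None of these could leave out the single DBZ array or use the replicate block for DBZ. The number of subunit probe sets passing was 1 in DBZ, dexa and dexa+DBZ relative to DMSO and in the interaction. With the values as deposited it was 5 in DBZ, 6 in dexa, 6 in dexa+DBZ and 4 in the interaction; the median of all tested probe sets then moved to -0.997, -0.923, -0.985 and 0.943. With no filter it was 0 in the interaction, and with no intensity trend also 0. Leaving out single arrays gave 1 to 1 in DBZ, whose own array could not be left out, and 0 to 1 in dexa, dexa+DBZ and the interaction.

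Sign changes with the values as deposited were, in DBZ relative to DMSO, Psen2 -0.69, Psenen -0.96, Aph1a 1451554_a_at -0.72 and Sppl3 -0.15; in dexa, Psen2 -0.63, Psenen -0.91, Aph1a 1451554_a_at -0.98, App -0.20 and Aplp2 -0.0465; in dexa+DBZ, Psen2 -0.74, Psenen -0.75, Aph1a 1451554_a_at -0.87, App -0.0633 and Aplp2 -0.23; and in the interaction, Psen2 0.58, Aph1a 1424979_at 0.83 and Aph1a 1451554_a_at 0.83. With these values Sorl1 (0.06) and Vldlr (0.35) in dexa and the Sorl1 interaction (-0.66) no longer passed. Quantile normalisation turned Aph1a 1451554_a_at in dexa relative to DMSO (-0.0378), Psen2 in dexa+DBZ relative to dexa (0.0295) and Psen2 in DBZ relative to dexa (0.12). Leaving out single arrays turned small changes. For Psen2 these ran from -0.31 to 0.21 (dexa+DBZ relative to DBZ), -0.37 to 0.15 (dexa+DBZ relative to dexa) and -0.10 to 0.42 (dexa+DBZ relative to DMSO). For Psenen they ran from -0.00693 to 0.31 (dexa+DBZ relative to dexa), -0.12 to 0.0170 (DBZ relative to dexa), -0.0569 to 0.12 (DBZ relative to DMSO), -0.00493 to 0.18 (dexa relative to DMSO) and -0.0409 to 0.28 (interaction). For Ncstn they ran from -0.36 to 0.0908 (dexa+DBZ relative to dexa), -0.18 to 0.27 (DBZ relative to dexa) and -0.15 to 0.30 (interaction). For Aph1a they ran from -0.41 to 0.13 (1424979_at, interaction) and -0.0581 to 0.0597 (1451554_a_at, dexa relative to DMSO). The causes were not tested.

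Counts over all tested probe sets in DBZ, dexa and dexa+DBZ relative to DMSO were 1137, 1642 and 1015, against 9515, 10404 and 11055 with the values as deposited (126, 195 and 127 of them higher, against 510, 985 and 598), 538, 1082 and 623 with no filter, and 678, 1148 and 653 with no intensity trend. The interaction had 545 (282 higher), 6566 (6449 higher), 233 and 206 in the same order of settings. With no filter the calls on the interactions of Bace2 (adjusted p = 0.0767) and Sorl1 (0.0763) and on Sppl3 in DBZ (0.0565) ended, and with no trend those of Sorl1 (0.0853) and Sppl3 (0.0715). Calls of probe sets that were not the brightest of their gene ended with no filter for Efnb1 (0.0741), Efnb2 (0.0614) and Bace2 in dexa (0.0903), and with no trend for Efnb1 (0.0748), Efnb2 (0.0629), Bace2 (0.0538), App in dexa (0.0589) and Aplp2 in dexa+DBZ (0.0609). Efnb1 was at 0.26 and Bace2 at 1.04 with the values as deposited, and with the replicate block the calls on Aplp2 in dexa+DBZ (0.0503) and Bace2 in dexa (0.0634) ended. Between treated groups the counts were 45 (dexa+DBZ relative to DBZ), 4 (dexa+DBZ relative to dexa) and 46 (DBZ relative to dexa), and ran over the alternatives from 0 to 54, 0 to 104 and 1 to 90. A fit without the DMSO arrays, added after the data were seen, gave 22, 17 and 36 and no subunit call.

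Deviations of same-numbered arrays correlated at 0.115 (dexa+DBZ and dexa), -0.122 (dexa+DBZ and DMSO) and 0.049 (dexa and DMSO). These values show no clear shared effect of replicate number, and with so few arrays they cannot settle whether mice were paired. With the replicate block, which the single DBZ array does not allow for DBZ, Aph1a 1424980_s_at stayed at -1.01 in dexa (adjusted p = 0.0214) and -1.28 in dexa+DBZ (adjusted p = 0.0132), the subunit count was 1, 1 and 0 in dexa and dexa+DBZ relative to DMSO and dexa+DBZ relative to dexa, and over all probe sets it was 1471, 867 and 0.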
